A study of Mus musculus with 246 samples.

Results

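The nucleus accumbens (Nacc) was compared with 5 other brain regions of control mice by RNA sequencing of tissue punches. The Nacc group was every sample labelled nucleus accumbens shell and Ctrl_Vehicle_NoInteraction, which gave 7 of the 41 Nacc samples in a series of 41 mice with 6 regions each. It was set against 7 samples each of ventral hippocampus (vHipp), dorsomedial thalamus (DMT), basolateral amygdala (BLA) and, from cortex, of the anterior cingulate (ACC) and medial prefrontal (mPFC) areas with that same label, 35 samples in all. The mice were adult male offspring of outbred CD1 breeding. Their litters had been raised with standard bedding and nesting material, and their dams had been injected on the second postnatal day with the empty lipid gel that served as vehicle. The study set these controls beside mice with early life adversity (ELA), given vehicle or SAFit2, an inhibitor of the stress-related co-chaperone FKBP51, and sampled each condition with or without a social interaction before death. The 42 samples compared here had no interaction. Left and right punches of a mouse were pooled, so each sample is a mixture of the cells in the punch. In such bulk tissue, fewer cells of a type and less RNA per cell cannot be told apart.

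The Nacc is the ventral part of the striatum. Nearly all of its neurons are GABAergic spiny projection neurons, which fall into a direct-pathway class carrying the dopamine D1 receptor and an indirect-pathway class carrying the D2 receptor. Both classes share a signalling cascade in which D1 dopamine or adenosine receptors act through the G protein Golf on adenylyl cyclase. Sparse interneurons, among them large cholinergic cells, make up the rest, and the glutamatergic projection neurons that dominate cortex, hippocampus and BLA are lacking. The shell is the medial and ventral part, bordered by the septum, the ventral pallidum and the anterior olfactory areas.

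Not every sample matched its number. Over the 60 genes that differed most between mice across the other regions, 12 of the 41 Nacc samples of the whole series were closest to a mouse with a different number, against 0 in each of the other regions. Samples of those other regions helped to choose the genes and the Nacc samples did not, so the 0 is not a like baseline. Of the 7 control samples, mouse 1 was closest to mouse 89 of the Ctrl_Vehicle_SocialInteraction group, with a correlation of 0.79 against 0.28 with its own number. Mouse 81 was closest to mouse 37 of the ELA_Vehicle_NoInteraction group, at 0.56 against 0.31. The other 5 correlated at 0.87 to 0.93 with their own mouse. All 7 were kept under their labels, and list counts and calls that change without mice 1 and 81 are given beside the results. The summed counts of the 42 samples ran from 21645573 to 39360386, and those of the Nacc from 25679145 to 37029433. A separate feature of the Nacc set was mouse 65, whose sample held more cortical and less striatal transcript than the others, with values given below beside the results that it moves.

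Levels are given as CPM, a gene's count scaled to a common library size, and a gene was called when edgeR's quasi-likelihood test gave an adjusted p below 0.05 and the log2 fold change exceeded 1 in size. Of 16066 protein-coding genes tested, 691 were called higher in the Nacc than the mean of the 5 regions (4.30%) and 728 lower (4.53%). Calls against all 5 regions one by one were fewer, with 154 genes higher (0.959%) and 66 lower (0.411%). The median log2 fold change of all genes was 0.00 against the mean and 0.01 to 0.03 against single regions. Without the requirement on fold change, 9784 genes (60.9%) had an adjusted p below 0.05 against the mean, so the threshold on size did most of the selecting. In 352 genes (2.19%) all 7 Nacc samples lay above all 35 others, and in 121 (0.753%) all lay below. Samples did not overlap in 68.2% of the 154 genes called higher than every region, and in 18 of the 66 called lower.

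The regions were unequally far from the Nacc. Against the DMT, 1524 genes were higher (9.49%) and 1508 lower (9.39%). Against the vHipp, 962 were higher (5.99%) and 1071 lower (6.67%). The ACC gave 903 higher (5.62%) and 875 lower (5.45%), and the mPFC 782 higher (4.87%) and 847 lower (5.27%). Against the BLA the directions were unequal, with 387 genes higher in the Nacc (2.41%) and 964 lower (6.0%). Against the other 4 regions alone, a choice made after the values were seen, 296 genes were higher and 113 lower.

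**Figure D1:**
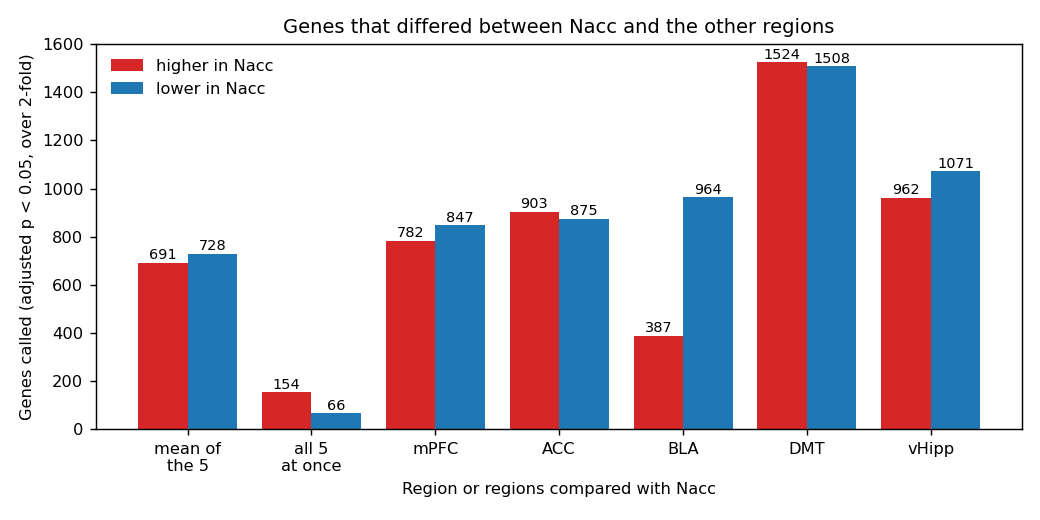
Number of protein-coding genes called higher (red) or lower (blue) in the 7 Nacc samples than in each region, than in the mean of the 5 regions and than in all 5 regions at once, by edgeR with an adjusted p below 0.05 and a log2 fold change over 1 in size. The DMT gave the most calls, and the BLA the fewest genes higher in the Nacc, 387.

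Most direct-pathway genes were higher in the Nacc than in every region, with the BLA next. Of 8 genes listed for this class, 6 were called against the mean and also against all 5 regions, each without overlap of samples, and the list had a median log2 fold change of 3.81 against 0.00 over all genes. Drd1, the D1 dopamine receptor, ranged from 150 to 293 CPM in the Nacc with a median of 225 CPM, while no other sample exceeded 84.7 CPM. Its mean of 220 ± 45.8 CPM (SD, n = 7) lay above the mean of the 5 regions by a log2 fold change of 4.16 (SE 0.19, adjusted p = 3.83e-21). The samples of mouse 65 lay at both edges of that gap, with the lowest Nacc value and the highest BLA value. Tac1, the precursor of the peptide substance P, ranged from 173 to 267 CPM with a median of 230 CPM and a log2 fold change of 4.61 (SE 0.22, adjusted p = 6.29e-21). Its highest value elsewhere was 71.6 CPM in the BLA. Pdyn, the precursor of the dynorphins that act on kappa opioid receptors, had 169 to 346 CPM in the Nacc and up to 142 CPM in the BLA.

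The other 3 called members were also higher in the Nacc than in every region. Chrm4, the muscarinic receptor that couples to Gi in these cells, averaged 51.4 ± 6.88 CPM (SD, n = 7) with a log2 fold change of 2.59. Slc35d3, a membrane protein of the sugar transporter family, had 41.3 to 70.7 CPM in the Nacc against at most 16.8 CPM elsewhere. Isl1, a homeodomain transcription factor of the direct-pathway lineage, had 11.6 to 22.2 CPM in the Nacc, at most 9.56 CPM in the BLA and no more than 1.26 CPM in any other sample. The 2 listed genes that were not called were Eya1, with a log2 fold change of 0.32, and Sfxn1, with -0.02. Eya1 was highest in the vHipp, at 19.9 to 34.7 CPM against 9.90 to 18.6 CPM in the Nacc.

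The promoter of Tac1 is shown because this gene marks the direct pathway, whose D1 receptor signals through cyclic AMP. The 250 bases before the gene start, chr6:7554811-7555060 on the plus strand of GRCm38.p6 from RefSeq, follow, with each CGTCA, the short cyclic AMP response element, in capitals.
Tac1: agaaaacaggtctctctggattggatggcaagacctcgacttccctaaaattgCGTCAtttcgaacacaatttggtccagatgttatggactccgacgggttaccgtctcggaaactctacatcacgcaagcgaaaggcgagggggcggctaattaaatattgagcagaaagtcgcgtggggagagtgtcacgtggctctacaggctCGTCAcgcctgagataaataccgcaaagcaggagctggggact
Of 32851 RefSeq promoters of 300 bases, 6837 (20.8%) held CGTCA on either strand. Among the tested genes with a promoter, 4032 of 12465 (32.3%) held it, as did 31 of 116 (26.7%) of the genes higher than every region and 10 of 46 (21.7%) of those lower.

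The indirect-pathway genes were also higher than in cortex, thalamus and hippocampus, but several overlapped with the BLA. The list had median log2 fold changes of 4.22 against the mPFC, 5.28 against the ACC, 5.27 against the vHipp and 3.54 against the DMT, where the direct-pathway list had 3.30, 3.47, 4.25 and 5.93. Of 7 listed genes, 6 were called against the mean, 4 against all 5 regions, and 2 had no overlap, with a median log2 fold change of 3.94. Drd2, the D2 dopamine receptor, ranged from 98.5 to 180 CPM in the Nacc with a median of 143 CPM, and from 16.1 to 98.6 CPM in the BLA. Both ranges met at mouse 65, which had the lowest Nacc and the highest BLA sample. The log2 fold change of Drd2 was 3.94 against the mean (SE 0.29, adjusted p = 9.10e-15) and 1.44 against the BLA (adjusted p = 0.00671). Adora2a, the adenosine receptor that opposes D2 signalling in these cells, had 192 to 335 CPM in the Nacc, 44.6 to 215 CPM in the BLA and at most 46.5 CPM elsewhere. Against the BLA the log2 fold change was 1.16 (adjusted p = 0.0352), and its call against all 5 regions was lost with DESeq2 and without mouse 33, mouse 81 or mice 1 and 81.

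Penk, the precursor of the enkephalins, showed the same split. It ranged from 732 to 1201 CPM in the Nacc with a median of 1055 CPM, from 250 to 874 CPM in the BLA and up to 187 CPM elsewhere. The log2 fold change of Penk was 4.79 against the mean (SE 0.21, adjusted p = 6.05e-22) and 0.91 against the BLA, where it fell short of the threshold. Sp9, a transcription factor needed to make indirect-pathway neurons, did not differ from the BLA by the test, with -0.06 (adjusted p = 0.846) and overlapping ranges of 17.1 to 24.8 and 13.4 to 29.6 CPM. Gpr6 and Gpr52, orphan receptors that raise cyclic AMP, were higher than in every region without overlap. Gpr6 had 35.9 to 72.9 CPM in the Nacc and at most 23.5 CPM in any other sample. The listed gene without a call was Grik3, a kainate receptor subunit, at 0.19.

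Gpr6 is shown as the clearest gene of this pathway, with the full cyclic AMP response element TGACGTCA in capitals. The stretch is the 120 bases before the gene start, chr10:41072291-41072410 on the minus strand of GRCm38.p6 from RefSeq, and the element lies 78 to 71 bases before the start.
Gpr6: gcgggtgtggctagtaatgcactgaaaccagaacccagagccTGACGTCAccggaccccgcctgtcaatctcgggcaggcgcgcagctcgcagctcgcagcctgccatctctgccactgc
TGACGTCA contains CGTCA on both strands, so it is counted under that shorter motif too. It was found in 588 promoters (1.79%), in 397 of the tested genes matched (3.18%), in 2 of the 116 genes higher than every region (1.72%) and in 0 of the 46 lower. The promoters shown were chosen after their genes' values were seen, and such a match is a description of the letters alone.

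**Figure D2:**
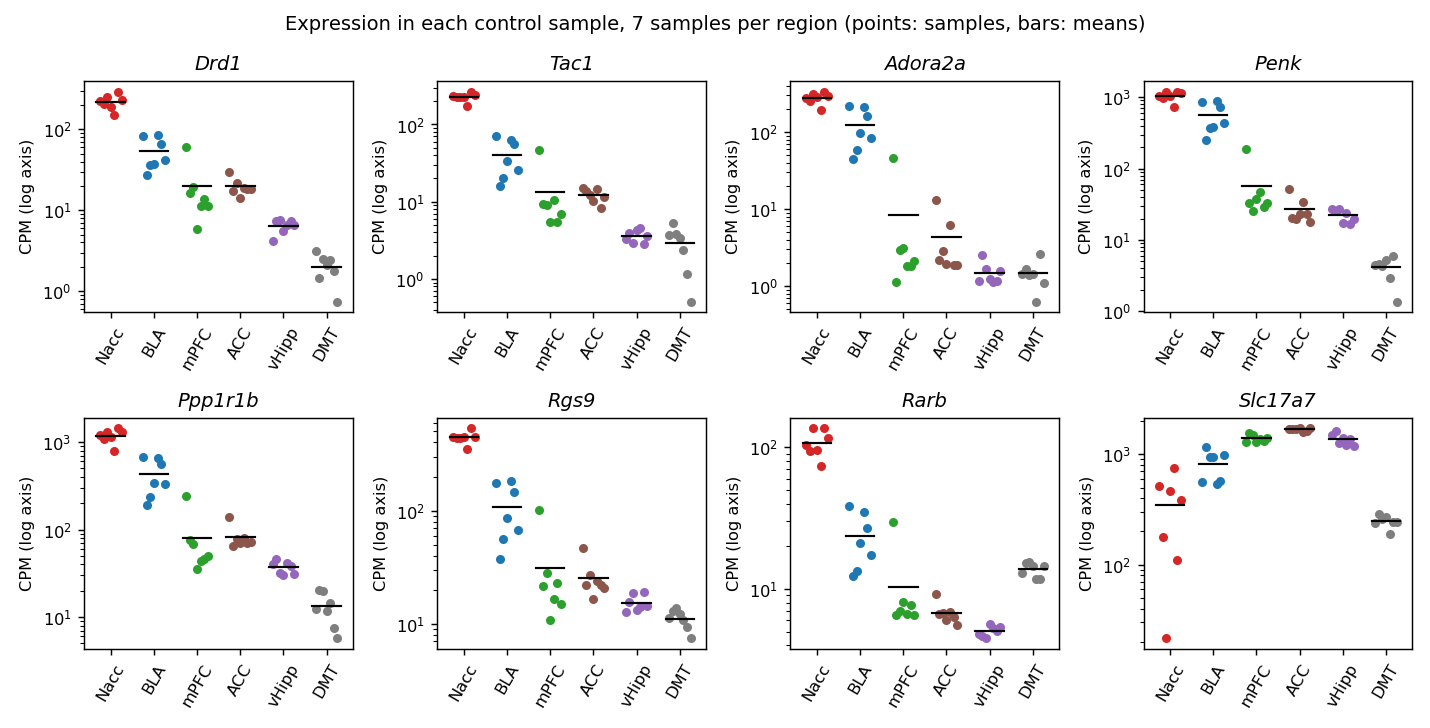
Level in each of the 42 control samples of Drd1, Tac1, Adora2a, Penk, Ppp1r1b, Rgs9, Rarb and Slc17a7, in CPM on a log axis, by region, with 1 point per sample and bars for the means. Nacc points of Drd1, Tac1, Ppp1r1b, Rgs9 and Rarb lie above all others, those of Adora2a and Penk overlap with the BLA, and those of Slc17a7 spread from 21.5 to 747 CPM.

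The signalling genes that both spiny classes share gave a uniform result. All 17 listed genes were called higher than the mean of the 5 regions, 14 were higher than every region (13 without mice 1 and 81) and 16 had no overlap with any other sample. The median log2 fold change of the list was 2.52, and 1.42 against the BLA. Ppp1r1b, which encodes the dopamine- and cyclic AMP-regulated phosphatase inhibitor DARPP-32, ranged from 795 to 1438 CPM in the Nacc, from 191 to 678 CPM in the BLA and no higher than 242 CPM elsewhere. Its log2 fold change was 4.13 (SE 0.20, adjusted p = 1.07e-20). Rgs9, a regulator that ends G protein signals at dopamine receptors, averaged 443 ± 54.1 CPM (SD, n = 7) with a log2 fold change of 4.04, and reached 182 CPM at most elsewhere.

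Genes at each step from receptor to cyclic AMP were among them. Gnal, the alpha subunit of Golf, had 712 to 1066 CPM in the Nacc and a log2 fold change of 1.69. Gng7, the gamma subunit that joins it, had 674 to 1270 CPM and 2.97. Adcy5, the main striatal adenylyl cyclase, had 898 to 1466 CPM and 2.52 (SE 0.11, adjusted p = 2.57e-22), and every other sample stayed at or below 754 CPM. Pde10a, the phosphodiesterase that breaks down cyclic nucleotides in spiny neurons, had 940 to 1307 CPM and 2.94. Prkar2b, a regulatory subunit of protein kinase A, was nearer to the threshold, with 1.45 against the mean and 1.01 against the BLA. Its call against all 5 regions was lost without mouse 33, mouse 81 or mice 1 and 81.

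Among 37 genes of the G protein, cyclic AMP and cyclic GMP cascade, 13 were higher than the mean and 2 lower, 8 were higher than all 5 regions, and the median was 0.13. Without mice 1 and 81, 1 was lower and 6 were higher than all 5. Over all genes 4.30% were higher and 4.53% lower than the mean. Lower calls of 1 or 2 genes, here and in the lists below, are therefore given for the genes and not as a property of the list. Adcy1, the calcium-stimulated cyclase of cortical neurons, was lower in the Nacc, with 160 to 543 CPM and a log2 fold change of -1.61, next to the higher Adcy5. Pde1c, a calmodulin-dependent phosphodiesterase, was higher at 2.56, as was Gucy1a1, a subunit of the nitric oxide receptor, at 1.79. These last genes did not pass against the BLA at the fold threshold, where their values were 0.99 and 0.79. The 3 shared signalling genes that missed the call against all 5 regions were Ptpn5, the striatal-enriched phosphatase STEP, at 0.82 against the BLA, Kcnip2, a subunit of A-type potassium channels, at 0.49 against the BLA, and Syndig1l at 0.92 against the DMT.

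The transcription factors of the striatal lineage were high in the Nacc and mostly also in the BLA punch. Of 21 listed, 18 were higher than the mean and 0 lower, with a median of 2.04, while 6 passed against the BLA and 4 against all 5 regions. Those were Foxp1, Zfp503, Isl1 and Rarb. Zfp503, also called Nolz1, had a median of 28.1 CPM in the Nacc and up to 17.1 CPM in the BLA, where mouse 65 was again the highest. Foxp1, a forkhead repressor of spiny neurons, lay at the threshold against the ACC, at 1.0, and its call against all 5 regions was not stable. It passed with upper quartile factors and without mouse 9, mouse 41 or mouse 65, and was lost under every other alternative run, among them DESeq2, the mouse number as a block and the set without mice 1 and 81. Six3, needed for indirect-pathway neurons, differed from the mean by 5.31 but from the BLA by 0.86 (adjusted p = 0.136). Foxp2, a relative of Foxp1 linked to vocal learning, had medians of 113 and 123 CPM in the DMT and the Nacc. Dlx5 and Dlx6, adjacent genes of the GABAergic lineage, had log2 fold changes of 3.18 and 3.32, and Meis2 had 3.11.

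Genes of retinoic acid signalling, a pathway that shapes and maintains striatal neurons, were divided. Of 18 listed, 6 were higher than the mean, 1 was lower and the median was 0.62. Rarb, the retinoic acid receptor beta, ranged from 73.8 to 136 CPM in the Nacc, and no other sample exceeded 38.6 CPM. Its log2 fold change was 3.39 (SE 0.16, adjusted p = 4.54e-21), and it was the one gene of the list higher than every region. Its possible partner Rxrg, a retinoid X receptor, had 44.8 to 79.7 CPM and a log2 fold change of 3.33, but 0.89 against the BLA. Crabp1, which encodes a retinoic acid-binding protein, was higher than the mean, at 3.38, and was not distinguished from the BLA by the test, at -0.57 (adjusted p = 0.107). The lower gene was Cyp26b1, the enzyme that breaks down retinoic acid. It had 1.11 to 7.75 CPM in the Nacc and 121 to 179 CPM in the BLA, a log2 fold change of -5.39, and -1.31 against the mean, which became -0.98 and lost its call without mice 1 and 81. In the DMT it was lower still, at 0.313 to 0.715 CPM.

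The promoter of Rarb is shown because the gene is itself a known retinoic acid target. The 120 bases before the gene start, chr14:16575477-16575596 on the minus strand of GRCm38.p6 from RefSeq, follow, with the retinoic acid response element, a direct repeat with 5 bases between its copies, in capitals at 52 to 37 bases before the start.
Rarb: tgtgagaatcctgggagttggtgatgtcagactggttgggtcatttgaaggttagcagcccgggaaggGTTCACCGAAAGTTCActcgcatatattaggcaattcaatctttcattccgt
The letters searched on both strands were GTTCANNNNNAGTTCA, which are those of the Rarb element with any 5 bases between the copies. The first base of the first copy, the g before the capitals, was not part of the search. Rarb therefore had to match. The letters occurred in 11 of 32851 promoters (0.0335%) and in 5 of the 12465 tested genes matched. They occurred in 1 of the 116 genes higher than every region, which is Rarb, and in 0 of the 46 lower. How often the element occurs in other spellings was not tested.

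**Figure D3:**
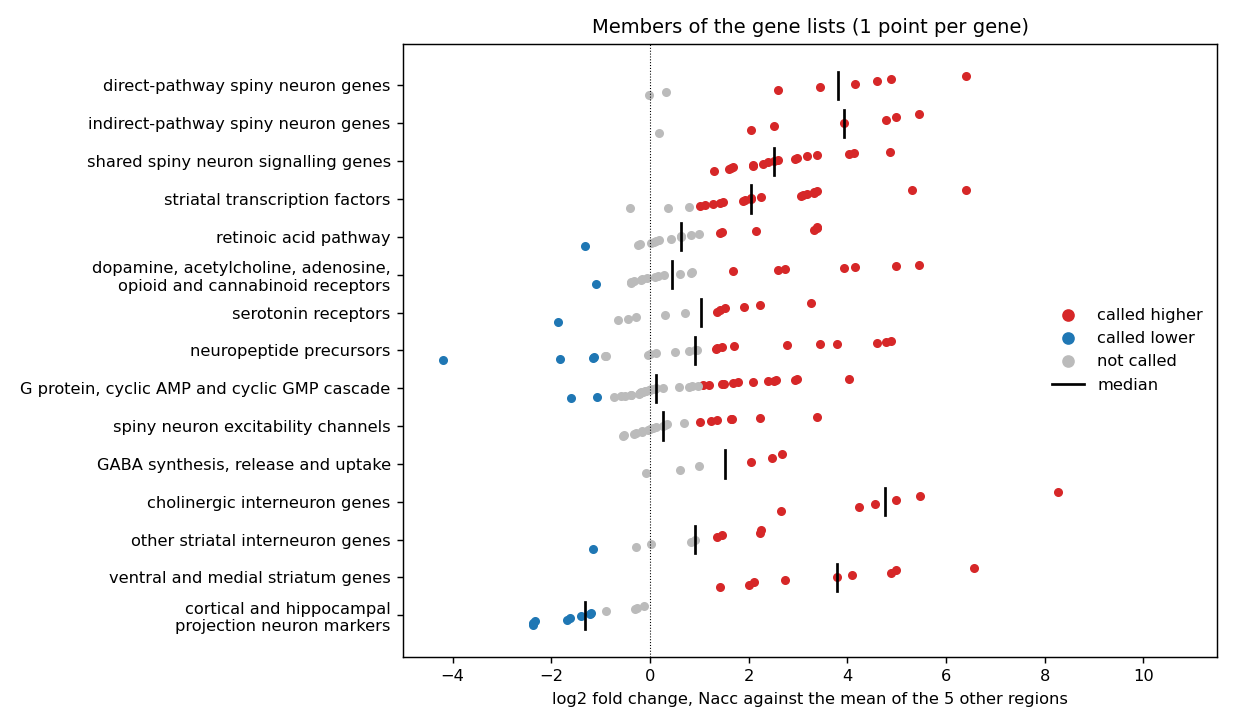
Log2 fold change of the Nacc against the mean of the 5 regions for each tested gene of the gene lists, with the list median as a line, on a linear axis. Spiny neuron, cholinergic and ventral striatum genes lie mostly above 0, and projection neuron markers lie mostly below.

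Receptors for the transmitters that reach the Nacc were higher in part. Of 20 receptors for dopamine, acetylcholine, adenosine, opioids and cannabinoids, 7 were higher than the mean, 1 was lower and 6 were higher than every region (5 without mice 1 and 81), with a median of 0.45. Drd3, the D3 dopamine receptor typical of the ventral striatum, had 5.55 to 12.5 CPM in the Nacc and at most 1.43 CPM elsewhere, a log2 fold change of 4.98 (SE 0.26, adjusted p = 2.21e-19). Against the BLA it differed by 3.13, more than Drd1 at 2.03 or Drd2 at 1.44. Oprk1, the kappa opioid receptor, had 47.1 to 93.9 CPM and 2.73, with no overlap. Oprd1, the delta receptor, was called against the mean at 1.68, had at most 0.581 CPM in the DMT, and lay at 0.17 against the mPFC and -0.19 against the ACC. Oprm1, the mu receptor, was not called, at 0.61, and was lower than in the DMT. Cnr1, the cannabinoid receptor, was at -0.33 without a call. The lower receptor was Chrm3, a Gq-coupled muscarinic receptor, at -1.09, or -0.97 without mice 1 and 81, where its call was lost.

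Serotonin receptors were higher in part, with none above all 5 regions. Of 12 tested of 14 listed, 6 were higher than the mean and 1 lower, with a median of 1.02, and 0 passed against all 5 regions, with edgeR or DESeq2. Htr1b had 40.6 to 72.6 CPM in the Nacc and a log2 fold change of 2.23, with 0.73 against the BLA. Htr1d, its close relative, had 9.89 to 15.1 CPM and 3.27. Htr2c, which couples to Gq, was similar in Nacc, BLA and DMT samples, with medians of 197, 186 and 190 CPM. Htr4, which raises cyclic AMP, had 13.3 to 19.0 CPM in the vHipp and averaged 15.1 ± 3.72 CPM (SD, n = 7) in the Nacc.

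Among the neuropeptide precursors, 23 of 27 listed could be tested, and 10 were higher than the mean, 4 lower, with a median of 0.92. Without mice 1 and 81, 11 were higher and 3 lower. Tac1, Pdyn and Cartpt were higher than every region. Cartpt is the precursor of cocaine- and amphetamine-regulated transcript, and averaged 54.1 ± 12.1 CPM (SD, n = 7) in the Nacc, where its lowest sample had 38.2 CPM. The BLA came next with a median of 9.23 CPM, and no sample of the other regions overlapped. Its log2 fold change was 4.89 (SE 0.14, adjusted p = 1.47e-27). Nts, neurotensin, was higher than the mean at 3.79 but not called against the BLA, at 0.56. Sst and Npy, made by striatal interneurons and by cortical ones alike, had 1.35 and 1.46 against the mean, with 5.64 and 5.50 against the DMT and 0.28 and 0.26 against the mPFC. Cck, cholecystokinin, and Grp, gastrin-releasing peptide, were lower than in every region. The call of Cck against all 5 was lost without mouse 9, mouse 33, mouse 81 or mice 1 and 81. Grp had 0.150 to 1.41 CPM in the Nacc and 1.63 CPM or more in all 35 other samples, a log2 fold change of -4.19 (SE 0.25, adjusted p = 2.00e-17).

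Ion channels of spiny neurons were higher in part. Of 21 listed, 7 were higher than the mean (6 without mice 1 and 81), 0 lower and 3 higher than every region, with a median of 0.26. Scn4b, a sodium channel subunit of resurgent current, had 534 to 789 CPM in the Nacc and at most 345 CPM elsewhere, a log2 fold change of 3.38. Kcnj2, an inward rectifier that sets the resting potential, had 42.9 to 56.5 CPM and 1.66, and Cacna2d3, a calcium channel subunit, 176 to 274 CPM and 1.36. Kcnj4, another inward rectifier, was called against the mean at 2.23 but lay at 0.38 against the mPFC. The GABA genes Gad1, Gad2 and Slc32a1, which make and load the transmitter, were higher than the mean at 2.05, 2.48 and 2.67, but between 0.55 and 0.73 against the BLA.

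The cholinergic genes were higher in the Nacc than the mean of the regions and varied from sample to sample. All 6 listed were called against that mean, with a median of 4.77, 5 were higher than every region and 0 were free of overlap. The other gene, Gbx2, was lower than in the DMT. The sum of the 6 genes in the DMT, 71.5 to 113 CPM, lay within the Nacc range of 52.6 to 157 CPM. That sum includes Gbx2, which was also listed as a thalamic marker. Over the whole series, on protein-coding totals, Gbx2 reached 81.3 CPM in the DMT and 8.82 CPM in the Nacc. The sums therefore do not compare cholinergic transcript alone. Chat, the enzyme that makes acetylcholine, averaged 22.6 ± 5.87 CPM (SD, n = 7) in the Nacc and had 0.686 to 13.9 CPM in the BLA and 0.876 to 11.7 CPM in the DMT. Its log2 fold change was 4.98 (SE 0.32, adjusted p = 1.50e-16). Slc5a7 and Slc18a3, the choline and vesicular acetylcholine transporters, had 4.24 and 4.56. Lhx8, a homeodomain factor that specifies cholinergic neurons, had 4.93 to 31.7 CPM in the Nacc and 0 counts in all 7 DMT samples, at least 951-fold higher with 3 counts over the region as floor. In the BLA it reached 12.7 CPM over the whole series, on protein-coding totals. Mouse 65 had the lowest and mouse 9 the highest sum of the 6 genes, 52.6 and 157 CPM.

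Markers of the ventral pallidum and diagonal band, which border the shell and hold cholinergic cells of their own, varied in parallel. Of 6 such genes, among them Chat and Lhx8 of the cholinergic list, 5 were higher than the mean and 1 lower, with a median of 4.45, and their sum ran from 61.2 CPM in mouse 65 to 193 CPM in mouse 9. Gbx1, one of them, had 2.11 to 16.5 CPM, with mouse 9 highest. Its call against all 5 regions was lost without mouse 9 or mouse 41. Nkx2-1, which marks cells from the medial ganglionic eminence, averaged 4.66 ± 1.70 CPM (SD, n = 7) in the Nacc and had 2.06 to 5.46 CPM in the BLA. The part of these border cells in the cholinergic result was not tested.

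The 9 genes of the ventral and medial striatum were all higher than the mean, with a median of 3.79, and 4 were higher than every region. Calcr, the calcitonin receptor, had 0 counts in all 7 ACC samples and was at least 606-fold higher in the Nacc with the same floor. Over the whole series, on protein-coding totals, it reached 7.61 CPM in the BLA and fell to 0.388 CPM in the Nacc. In the 7 Nacc samples compared here it varied from 0.822 CPM in mouse 65 to 19.5 CPM in mouse 33. Dlk1, an imprinted growth regulator, had 22.1 to 140 CPM with the same pair of mice at the ends, and overlapped with the BLA at 32.8 to 57.9 CPM. Crym, a thyroid hormone binding protein of the medial striatum, had a log2 fold change of 2.11 against the mean and 8.56 against the DMT, and lay at 0.14 against the vHipp. Wfs1, an endoplasmic reticulum protein, was at 2.01 against the mean and 0.22 against the BLA. The defining transcripts of striatal tissue were present in all 7 samples. No other striatal subregion was sampled, so the shell label could not be set against the core or the dorsal striatum.

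Several of the genes furthest above the other regions are not usually named with the striatum. Serpina9, a serine protease inhibitor known from germinal centre B cells, had 37.1 to 71.2 CPM in the Nacc and a log2 fold change of 6.06 (SE 0.37, adjusted p = 2.82e-17). The highest value elsewhere was 11.6 CPM. Dsg1c, a desmosomal cadherin, Serpina9 and Drd3 led the genes higher than in the BLA, at 4.24, 3.42 and 3.13. That ranking took genes with a mean of 5 CPM or more in either region. Cd4, the T helper cell coreceptor, had 24.8 to 47.8 CPM in the Nacc, 2.02 to 28.6 CPM in the BLA and no more than 10.5 CPM elsewhere. Ptpn7, a phosphatase of blood cells, had 4.23 to 6.52 CPM, and Clec12a, a myeloid lectin, 2.89 to 9.42 CPM. The 7 microglia and 3 red blood cell markers had no call in either direction against any region, where 2.41% to 9.49% of all genes were called per region and direction. The lists held no lymphocyte markers, and which cells carry these transcripts was not tested.

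The genes below every region included several of glutamatergic projection neurons. Of the 66, 33 had a mean of at least 5 CPM elsewhere. The 10 lowest of those 33 against the mean were Grp, Vwa3b, Slc26a4, C1ql3, Bhlhe22, Grm2, Nrn1, Bdnf, Scn7a and Rtn4r, with log2 fold changes from -4.19 to -2.19. Among the less expressed genes left out of this ranking, Sec14l4 had -4.04 and Clec18a -3.52. Bdnf, the neurotrophin that cortical axons bring to the striatum, had 0.449 to 13.3 CPM in the Nacc against 7.45 CPM or more elsewhere, a log2 fold change of -2.25 (SE 0.27, adjusted p = 2.76e-09). C1ql3, a secreted synapse organizer, had 4.68 to 18.0 CPM in 6 of the Nacc samples and 74.8 CPM in mouse 65, and 54.4 CPM or more elsewhere. Grm2, a presynaptic glutamate receptor, Bhlhe22, a transcription factor of cortical neurons, and Nrn1, a neurite growth factor, were also highest in mouse 65. The call of Bhlhe22 against all 5 regions was lost without mouse 9, mouse 33, mouse 81 or mice 1 and 81. The sample of mouse 65 was the highest of the 7 Nacc samples for each of the 10 genes.

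Transcripts of glutamatergic neurons varied widely among the Nacc samples. Spread was ranked only among the listed genes and the leading genes named by rule, at a Nacc mean of 5 CPM or more. The largest there were those of Adcyap1, Slc17a7, Neurod2, Slc30a3 and Cdhr1. Other genes were not ranked. Of 12 projection neuron markers, 0 were higher than the mean and 8 lower, with a median of -1.31, and 1 was lower than every region. Slc17a7, the vesicular glutamate transporter of cortex and hippocampus, had 520, 180, 21.5, 468, 747, 110 and 383 CPM in mice 1, 9, 33, 41, 65, 81 and 97, a mean of 347 ± 257 CPM (SD, n = 7). The Nacc median was below the values of mPFC, ACC, vHipp and BLA, and above the DMT, whose samples had 191 to 289 CPM. Neurod2 and Slc30a3, other cortical genes, ranged from 0.860 to 40.1 and from 0.785 to 59.5 CPM.

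The sum of the 12 markers was 1353 CPM in mouse 65, 885 CPM in mouse 1, 845 CPM in mouse 41 and 130 CPM in mouse 33. In the mPFC it was 2432 to 3261 CPM. Conversely, the sum of the 17 shared spiny signalling genes was lowest in mouse 65, at 8675 CPM, and 10369 to 13519 CPM in the other 6. Markers of the olfactory bulb and migrating neuroblasts summed to 196 CPM in mouse 65 and 83.9 to 108 CPM in the others, and Cdhr1, a cadherin of olfactory bulb output neurons, had 56.3 CPM in mouse 65 and 1.57 to 10.2 CPM in the rest. Without mouse 65, 0.655% of the tested genes in place of 0.411% were lower than every region, and Cdhr1 went from a log2 fold change of 1.28 to -0.07. With the mouse number as a block, Cdhr1 was at 0.82 and lost its call. How tissue from beyond the Nacc contributed to these values was not tested.

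**Figure D4:**
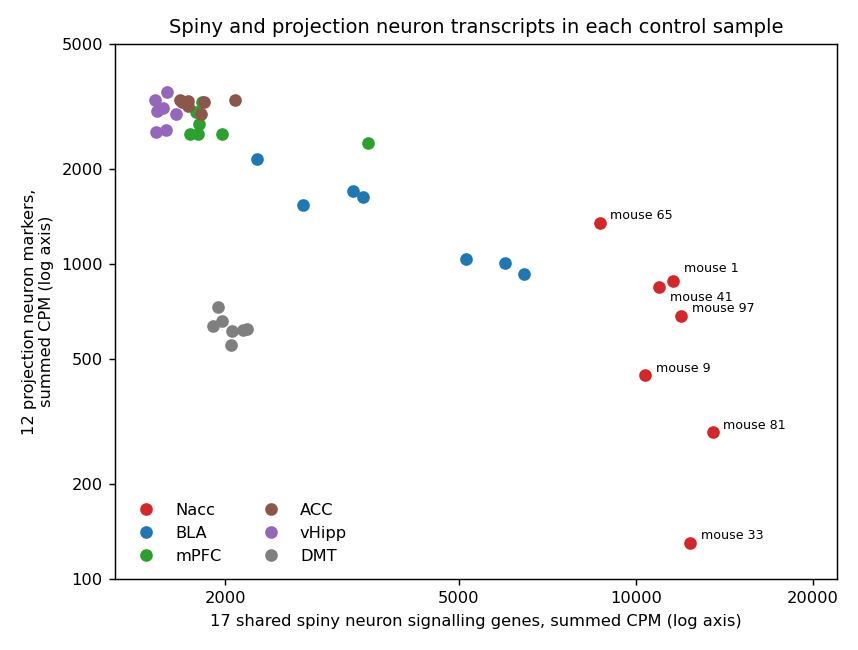
Summed CPM of 12 projection neuron markers against summed CPM of 17 shared spiny neuron signalling genes in each of the 42 control samples, both on log axes. The Nacc samples, labelled by mouse, lie to the right of all others, from 8675 to 13519 CPM, and spread from 130 to 1353 CPM on the vertical axis, and the BLA samples run from 2263 to 6442 CPM on the horizontal axis, overlapping with mPFC mouse 1 at 3501 CPM.

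The BLA had the highest sum of spiny signalling transcripts after the Nacc. The 17 signalling genes summed to 2263 to 6442 CPM in the BLA and 1739 to 3501 CPM in the mPFC. The mPFC value of 3501 CPM was mouse 1 alone, and the next mPFC sample, mouse 41, had 1974 CPM. The DMT had 1905 to 2174 CPM. The BLA samples differed among themselves. The highest BLA value of Drd1, Drd2, Penk and Adcy5 was in mouse 65 and that of Tac1, Adora2a and Ppp1r1b in mouse 1. In the mPFC, Serpina9 had 11.6 CPM in mouse 1 where the median was 0.252 CPM. The part of striatal or other neighbouring tissue in the BLA and mPFC values was not tested.

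Transcripts of choroid plexus were high in 6 of the 7 BLA samples. The 9 choroid plexus markers summed to 1862 to 4765 CPM in those 6 and to 40 CPM in the BLA of mouse 65, within the Nacc range of 22.2 to 47.5 CPM. Against the BLA, all 9 choroid plexus and all 7 ependymal markers were lower in the Nacc. Ttr, transthyretin, the main secreted protein of choroid plexus, had 0.742 to 4024 CPM in the BLA and 0 to 1.69 CPM in the Nacc. Folr1, the folate receptor of the same epithelium, had 0 counts in all 7 Nacc samples and was at least 2127-fold lower than in the BLA. The 1 marker on the list higher in the Nacc than the mean was Clic6, an intracellular chloride channel, with 15.5 to 37.5 CPM in the Nacc and 17 to 153 CPM in the BLA. Of the 964 genes lower than in the BLA, how many follow the choroid plexus was not tested.

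Each of the remaining regions had its own leading genes. Fezf2, the selector of deep-layer cortical neurons, was among the genes furthest below the mPFC and the ACC, with -4.52 and -4.79. Shox2 and Lhx9, thalamic transcription factors, were among the furthest below the DMT. Shox2 had 186 to 234 CPM in the DMT and 0 to 0.206 CPM in the Nacc. Tcf7l2, of thalamic relay neurons, was lower than in the DMT by -5.45. Lct, the lactase gene, was among the furthest below the vHipp, at -7.62, with 27.2 to 69.2 CPM there. In the other direction Ankrd63 and Krt9, an ankyrin repeat protein and a keratin, were among the furthest above the DMT, at 10.10 and 8.72.

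Glial and vascular markers were not called against the mean. Of 9 oligodendrocyte, 6 astrocyte, 7 microglia and 5 endothelial markers, none passed by edgeR or DESeq2, with list medians of 0.20, -0.15, 0.19 and 0.02. Over all genes 4.30% were higher and 4.53% lower, so no call in lists this small is near that share. Without mouse 65, and in the mice with social interaction, 1 astrocyte marker was lower than the mean. Against single regions, 1 astrocyte marker was lower than in the DMT and 2 were lower than in the vHipp. Against the mPFC, all 9 oligodendrocyte markers were higher in the Nacc, with a median of 1.11.

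The control mice with social interaction, 6 per region, were by their labels a second set of animals. These mice had met another mouse for 10 minutes. Of the 691 genes higher than the mean without interaction, 575 were called again (83.2%), which was 83.7% of the 687 called in the second set. Of the 728 lower, 559 were called again (76.8%), 80.8% of 692. Of the 154 genes higher than all 5 regions, 93 were (60.4%), 80.9% of 115, and of the 66 lower, 43 were (65.2%), 67.2% of 64. The sign was the same in 150 of the 150 tested again and in 66 of 66. Among these Nacc samples, those of mice 17 and 89 also matched another mouse, and the matches crossed the sets. The Nacc sample of mouse 17 was closest to mouse 81 of the first set, at 0.83 against 0.26 with its own number, as that of mouse 1 in the first set was to mouse 89 of the second. The Nacc sample of mouse 89 was closest to mouse 39 of the ELA_SAFit2_NoInteraction group, at 0.67 against 0.23. So these Nacc samples may not come from the animals, or the set, on their labels. Leaving out these 4 samples left 5 and 4 Nacc samples. Of 680 genes higher and 614 lower than the mean, 559 (82.2%) and 463 (75.4%) were then called again, and of 135 higher and 55 lower than all 5 regions, 85 (63%) and 35 (63.6%). This choice was made after the data were seen.

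Many spiny neuron genes lost the call against all 5 regions in the second set. Of the 17 signalling genes, 14 passed in the first set and 6 in the second, while all 17 were higher than the mean in both. Drd2, Adora2a, Gpr52, Ppp1r1b, Adcy5 and Gnal were among those lost. The summed level of the list in the BLA was 2303 to 6554 CPM without interaction and 3443 to 9270 CPM with it, on protein-coding totals, and in the Nacc 8796 to 13622 and 9331 to 11388 CPM. A test of whether the difference between the Nacc and the mean of the regions itself changed with interaction called 0 of 16553 genes by edgeR, with 792 at an unadjusted p under 0.05, 0 by DESeq2, and 0 by edgeR without the 4 Nacc samples that matched another mouse. The 6 direct-pathway genes and Cartpt, Drd3 and Rarb stayed higher than every region in both sets.

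**Figure D5:**
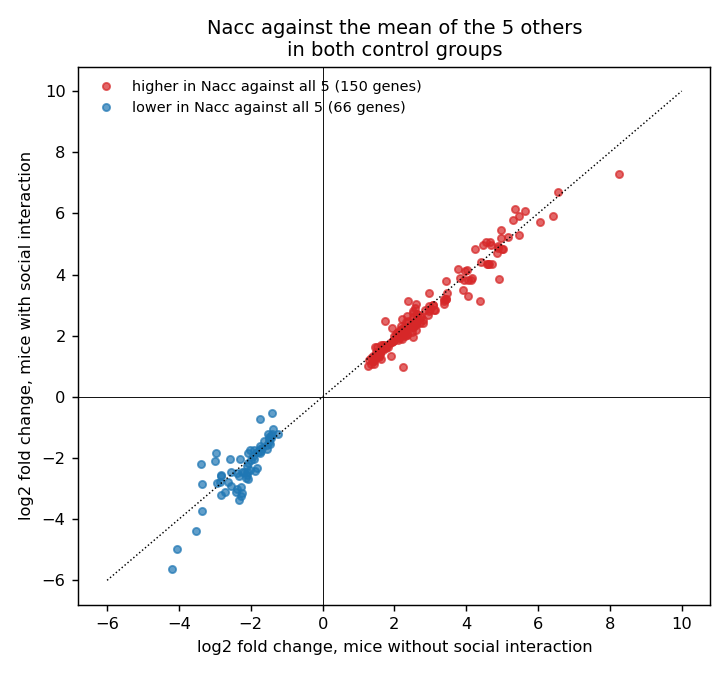
Log2 fold change of the Nacc against the mean of the 5 regions in control mice with social interaction (vertical, 6 samples per region) against that in control mice without (horizontal, 7 per region), for the genes called against all 5 regions in the mice without interaction, on linear axes. All 150 genes higher and 66 lower that were tested again keep their sign.

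Across the whole series, with all 6 combinations of rearing, treatment and interaction, some genes kept a gap between the Nacc and the rest. These levels are CPM on the total of the protein-coding genes. Cartpt in the 41 Nacc samples ran from 19.5 to 71.9 CPM and in the 205 others reached 17.5 CPM. Drd3 ran from 4.47 to 12.8 CPM and reached 2.57 CPM elsewhere. Drd1 ran from 82.6 to 296 CPM, and 9 of the 205 other samples lay at or above the lowest Nacc sample. For Adora2a 31 others did, with the highest, 319 CPM, in the BLA.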

How the data were processed

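Estimated counts per gene were deposited by the authors as 1 salmon table of 56691 genes and 246 samples. The submitters' processing notes name STAR, DESeq2 and the GRCm39 (mm39) build, and their versions are not given in the sources used here. RNA was poly-A selected, and 12.12% of the values were not whole, so they were rounded. Gene types came from GENCODE M21 for 52073 IDs and from RefSeq symbols for 978. The remaining 3640 IDs were not used. Protein-coding genes with at least 100 summed counts and a count in at least 6 of the 42 control samples were tested. These samples went into 1 edgeR 4.0.16 quasi-likelihood fit (R 4.3.3, TMM factors, Benjamini-Hochberg adjustment) with region as the term. The 6 regions of a mouse carry its number, so the regions are not independent. Deviations of same-numbered samples correlated at 0.41 between mPFC and ACC and at -0.00 to 0.17 between the Nacc and the others, so the mouse block was an alternative.

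The text names listed genes. It names the 15 highest and 10 lowest of those passing against all 5 regions at 5 CPM or more. The 3 leading genes in each direction per region were added, also at 5 CPM or more. From all of these came the 5 with the largest spread in the Nacc and a few chosen for the text. Not all that met the rule are named, and some listed genes are not reported here. The members and lists were chosen with earlier results of these data known. DESeq2 1.42.0, other size factors, other filters, a test against the fold threshold and leaving out samples were the alternatives. The code was tested on simulated data. Promoters came from RefSeq, GRCm38.p6. A promoter matched 116 of the 154 genes higher than all 5 regions and 46 of the 66 lower.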

Additional observations from a re-analysis of the deposited data

Results flagged for a closer look

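In these 7 Nacc samples a value was singled out when 1 sample stood apart from the other 6 by more than Dixon's limit for 7 samples, which chance exceeds in about 1 in 20 groups. Of the 106 genes checked, 9 had such a value in mouse 65, 2 in mouse 9, 1 in mouse 41 and 1 in mouse 81. These genes were chosen for the text, some by their spread in these same 7 samples, so that rate is no baseline for the counts.

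The sample of mouse 65 was the high one for genes of glutamatergic and olfactory neurons. It had 74.8 CPM of C1ql3, 17 CPM of Bhlhe22, 44.3 CPM of Grm2, 35.9 CPM of Neurod6, 56.3 CPM of Cdhr1, 4.87 CPM of Scn7a and 1.41 CPM of Grp. Its olfactory bulb and neuroblast markers summed to 196 CPM against 83.9 to 108 CPM in the others. The same sample was the low one for Slc32a1, the vesicular GABA transporter, at 194 CPM against 260 to 310 CPM, and for Htr1d at 9.89 CPM where the others reached 15.1 CPM.

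The sample of mouse 9 stood above the others in Gbx2, a transcription factor also high in the thalamus, with 5.66 CPM against 1.15 to 2.94 CPM. It also stood apart in Shox2, another thalamic gene, at 0.206 CPM, which is near the detection limit. In mouse 81, one of the samples that matched another mouse, Drd3 was 12.5 CPM against 5.55 to 8.49 CPM. In mouse 41, Ttr was 1.69 CPM.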

How the results depend on the processing

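Counts of called genes kept within 1.5 times of the main value in 222 of 240 cases. Testing against a log2 fold change of 1 (glmTreat) gave 423 higher and 237 lower than the mean, 53 (0.330% of the genes tested) and 9 (0.056%) against all 5 regions, 399 and 380 against the mPFC, 523 and 426 against the ACC, 102 and 496 against the BLA, 603 and 575 against the vHipp, and 993 lower than the DMT. With all gene types, 1039 were higher than the mean and 2338 higher than the DMT. Against the 4 regions other than the BLA, 296 were higher (1.84%) and 113 lower (0.703%), where all 5 gave 154 (0.959%) and 66 (0.411%). Leaving out 1 Nacc sample gave 672 to 702 higher and 644 to 842 lower than the mean, and called 0.866% to 1.04% of the genes tested higher and 0.343% to 0.655% lower than all 5 regions, the highest share without mouse 65 in both directions. The ranges were 756 to 833 and 773 to 989 for the mPFC, 876 to 924 and 800 to 975 for the ACC, 372 to 395 and 903 to 1045 for the BLA, 1470 to 1543 and 1440 to 1554 for the DMT, and 945 to 976 and 1018 to 1150 for the vHipp. Without mice 1 and 81, 680 were higher and 614 lower than the mean, and 135 and 55 than all 5, of which 134 of the 154 and 53 of the 66 were shared. DESeq2 gave 683 and 769, and 144 and 76 than all 5. The mouse number as a replicate block gave 702 and 742, and 161 and 69 (0.429%) than all 5, and of the calls of named genes it ended those of Cdhr1 against the mean and Foxp1 against all 5, and no other. The glmTreat test asks for more than the threshold by construction, and the cause of the other shifts was not tested.

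Of 106 genes under 16 alternatives each, 1664 values kept direction and call, 27 lost the call, 4 gained it and 1 reversed. The reversal was Cdhr1 without mouse 65, at -0.07. Outside glmTreat, the calls against the mean that were lost were those of Chrm3, Cyp26b1, Cdhr1, Adcyap1 and Shox2. Of the 106 genes, 39 were called higher and 11 lower than all 5 regions. With glmTreat 22 of the 39, among them Drd2, Ppp1r1b, Chat, Lhx8 and Calcr, and 9 of the 11 lost that call. In the mice with social interaction 11 of the 39 and 0 of the 11 lost it. Other losses are given beside the results of Adora2a, Foxp1, Prkar2b, Gbx1, Bhlhe22 and Cck. Low counts limit Ttr, Shox2, Folr1, Lhx8 and Calcr, whose fitted fold changes depend on the prior count where a region is near 0.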
